A study of Mus musculus with 8 samples.

Results

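The netrin and Slit guidance genes examined here were 10 genes: the receptor genes Dcc, Unc5a, Unc5b, Unc5c, Unc5d, Robo1 and Robo2 (7 genes), and the ligand genes Ntn1, Slit2 and Slit3 (3 genes). They were taken by name from 21631 protein-coding genes on chromosomes 1 to 19 and X. The data were ATAC-seq peak lists, that is, places at which an excess of Tn5 insertions marks open chromatin, in mm10 coordinates. A peak was counted for a gene where its summit lay in the gene or within 5 kb of either end. Across 8 libraries this gave 1720 peaks in the full lists and 1106 peaks in lists of equal length, which hold the strongest 53864 per library because the shortest list has that many. Values below are from the lists of equal length unless full lists are named.

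All libraries came from male C57BL/6J mice (sgRosa, n = 4 libraries; sgNr2f2, n = 4 libraries). An AAV with a guide RNA against Rosa26, the control, or against Nr2f2, which encodes the orphan nuclear receptor COUP-TFII, had been given into the amygdala more than 2 weeks before; the design text calls it neuron-targeting and a knockdown. Both groups then had tube restraint (7 days), fear conditioning (1 day) and extinction training (3 days), so no unstressed animals enter the comparison. Neurons were isolated from dissociated amygdala with a magnetic-bead kit, and the design text gives 4 mice for each group. The labels give neither the age of the mice nor the promoter of the virus, nor the share of isolated cells that carried a guide, and a change in few cells cannot be told apart from a smaller change in many cells.

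Netrins and Slits are secreted proteins that steer growing axons and migrating cells. Netrin-1 attracts axons through DCC and can repel them through receptors of the UNC5 family, whereas Slits repel through ROBO receptors. In the adult brain these receptors and ligands are also present at synapses, and DCC and netrin-1 have been tied to synaptic plasticity. In open chromatin data, an active promoter usually gives a strong peak at the gene start, and enhancers give peaks inside and around the gene.

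Each full list held between 53864 and 143405 peaks, reached down to a deposited −log10 p of about 2, and in none of them did more than 18.6% of peaks pass a q of 0.05. Read depth is unknown, because the lists hold no read totals. Starts of protein-coding genes whose orientation was known had a peak within 1 kb in 4.17% to 7.07% of 17274 genes per library. Of 6 neuronal marker genes, 4 had an end peak (within 1 kb) in at least 1 library and none in more than 3, while Snap25 and Syn1 had none. The other lists gave 2 of 4 astrocyte, 2 of 4 oligodendrocyte, 3 of 4 microglial and 1 of 3 vascular markers, with at most 3 libraries for any gene, so end peaks did not set the neurons apart from other cell types. The part of other cell types in the results below was not tested. The targeted gene Nr2f2 had 1 peak each in sgRosa 3, sgRosa 4 and sgNr2f2 4 and none in the other 5 libraries, which does not measure its transcript or protein.

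The RefSeq tables gave start sites for 7 of the 10 genes (9 sites). Sequences are shown for the 3 start sites at which the lists placed a peak summit within 1 kb in 2 libraries, and for 1 further Robo2 start, picked after its values were seen because a peak lies over it. They are RefSeq sequences of GRCm38.p6, the assembly of mm10, from 250 bases before to 50 bases after the start, written 5′ to 3′ on the strand of the gene. Capitals mark the bases that a listed peak covered in any library. Robo1 (chr16:72662899-72663198, plus strand) is a start site inside the Robo1 gene body. The Robo2 sites are chr16:75092721-75093020 and chr16:74411776-74412075, both minus strand and also inside the gene body, and Unc5b (chr10:60831532-60831831, minus strand) is at the gene start.
Robo1 internal start: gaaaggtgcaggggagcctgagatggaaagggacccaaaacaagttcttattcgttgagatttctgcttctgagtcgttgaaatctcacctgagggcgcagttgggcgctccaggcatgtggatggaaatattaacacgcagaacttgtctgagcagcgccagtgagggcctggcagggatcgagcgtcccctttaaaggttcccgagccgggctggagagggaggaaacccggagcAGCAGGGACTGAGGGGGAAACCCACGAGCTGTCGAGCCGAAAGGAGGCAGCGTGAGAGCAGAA
Robo2 upstream internal start: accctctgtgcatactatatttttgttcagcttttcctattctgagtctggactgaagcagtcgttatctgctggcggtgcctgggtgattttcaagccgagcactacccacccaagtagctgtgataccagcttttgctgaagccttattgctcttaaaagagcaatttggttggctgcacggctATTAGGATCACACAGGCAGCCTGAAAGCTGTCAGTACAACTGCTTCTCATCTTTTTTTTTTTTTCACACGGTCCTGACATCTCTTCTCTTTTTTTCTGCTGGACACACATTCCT
Robo2 downstream internal start: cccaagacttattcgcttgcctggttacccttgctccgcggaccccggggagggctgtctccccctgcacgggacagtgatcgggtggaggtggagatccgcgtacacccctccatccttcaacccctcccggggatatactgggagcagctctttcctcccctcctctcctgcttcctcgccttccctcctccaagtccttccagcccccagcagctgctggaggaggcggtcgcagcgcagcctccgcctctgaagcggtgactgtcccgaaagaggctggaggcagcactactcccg
Unc5b gene start: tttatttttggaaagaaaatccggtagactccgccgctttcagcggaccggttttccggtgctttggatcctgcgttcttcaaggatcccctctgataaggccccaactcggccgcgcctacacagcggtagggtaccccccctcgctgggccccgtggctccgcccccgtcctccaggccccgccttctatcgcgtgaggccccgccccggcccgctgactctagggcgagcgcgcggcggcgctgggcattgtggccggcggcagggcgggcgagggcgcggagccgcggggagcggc

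Peaks covered 63 bases of the Robo1 window, all at its 3′ end, and 114 bases of the upstream Robo2 window. No base of the downstream Robo2 and the Unc5b windows was covered in any full list, since the peaks counted there lay beside the window. The Robo1 window held 15 CG dinucleotides and was 57% G and C, and the Unc5b window held 36 CG dinucleotides and was 69.7% G and C, against medians of 7 and 53% over 32619 listed promoters. The upstream Robo2 window had 5 CG dinucleotides and 45% G and C. The letters AGGTCA, a core sequence bound by many nuclear receptors, or TGACCT on the other strand, was in none of the 9 member windows and in 16.2% of all listed windows of this length, which says only that these letters were not there.

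Of the 7 guidance genes with a known orientation, 3 (Unc5a in sgRosa 3, Unc5b and Slit3) had a peak within 1 kb of the outer gene start in at least 1 library, and 1, Unc5b, in 2. Over all genes with a known orientation, 34.8% had such a peak in at least 1 library and 8.60% in 2 or more, so start peaks were sparse in these lists as a whole. At the Robo1 internal start (position 72663149), sgRosa 2 had a peak with the summit 65 bp downstream and sgNr2f2 1 had one 854 bp downstream. The upstream Robo2 start (75092770) had a peak in sgRosa 3 alone, with the summit 26 bp downstream and a −log10 p of 4.95, stronger than all but 10.9% of that list. No library had a peak within 1 kb of the outer Robo1 start.

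The downstream Robo2 start (74411825) had summits 269 bp away in sgRosa 3 and 919 bp away in sgNr2f2 2. For Unc5b, a receptor that mediates repulsion by netrin-1, sgRosa 3 had a summit 739 bp inside the gene and sgNr2f2 3 had one 615 bp upstream. No start-site peak of these 3 sites was at the same place in both of its libraries, as the distances show. At Unc5a and Slit2 the listed start had a peak in 1 library each, sgRosa 4 and sgRosa 2.

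Slit3, a repulsive ligand, had a start peak in 1 library of the equal-length lists (sgNr2f2 3) and in 4 of the full lists, namely sgRosa 4 and sgNr2f2 1, 2 and 3. The full lists of sgRosa 4, sgNr2f2 1 and sgNr2f2 2 were the longest, at 143405, 103939 and 97620 peaks, and no other exceeded 63648. The number of libraries in each group is thus not comparable in the full lists. All 4 summits lay upstream, between 547 and 830 bp from the start, at −log10 p values of 2.07 to 3.34. The share of the full list that was stronger was 39.9% in sgRosa 4 and 91.3%, 90.7% and 56.8% in sgNr2f2 1, 2 and 3. Unc5c had no peak within 1 kb of its start, and Ntn1, the netrin-1 gene itself, had none within 1 kb of either end, even in the full lists. For Dcc, whose orientation was not in the tables used, sgRosa 4 and sgNr2f2 2 had a peak at the low-coordinate end and none had one at the high end.

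**Figure D1:**
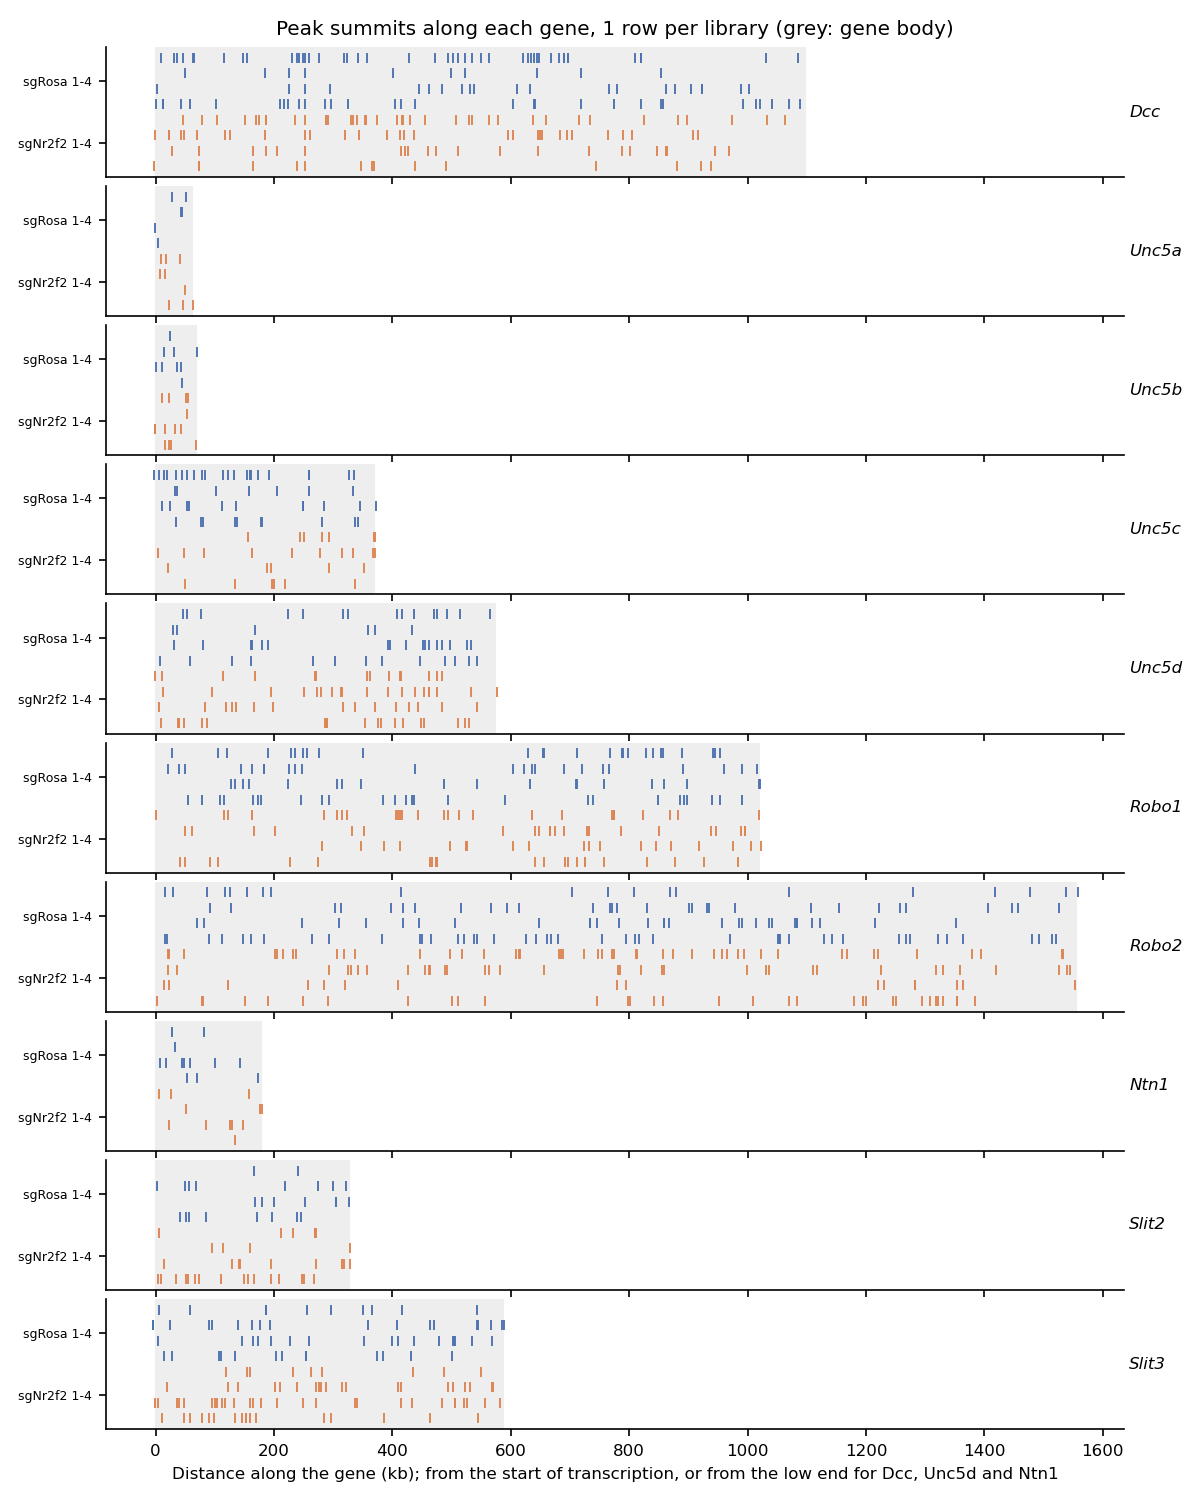
Peak summits along each gene in kb (x axis), with 1 row per library and grey for the gene body, in the equal-length lists. Marks are spread over whole genes, and the position 253 kb into Dcc recurs in all 8 rows.

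Peaks were spread along the gene bodies. The 7 genes with a known orientation held 728 peaks in their bodies, of which 5 equal parts of the gene, from the start on, held 19.8%, 20.1%, 19.1%, 21.0% and 20.1%. The same shares over long genes (at least 50 kb) with a known orientation were 19.95%, 19.5%, 19.4%, 19.9% and 21.2%. Per library, the first part held between 11.96% and 25.9% of the members' peaks (mean 19.8% ± 4.56, SD, n = 8), a range that covers the value of the long genes.

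Single genes were less even, with small counts. Dcc, counted from its low coordinate, held 28.0% of its 211 body peaks in the second of the 5 parts and 11.8% in the last. The second part includes the region found in all 8 libraries, described below and counted once per library. In single libraries that last part of Dcc held 0 to 6 peaks. Unc5d, counted likewise, held 29.7% of 118 peaks in the fourth part and 12.7% in the second. Robo1 held 26.0% of 181 peaks in the fourth part from its outer start and 14.9% in the third. Robo2, the longest of the genes, held between 18.8% and 22.7% of its body peaks in each of the 5 parts.

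Long genes carried many peaks, and the order of the 10 genes by total peaks was their order by length. Robo2 (1555 kb, chromosome 16, 73891976 to 75447443) held 257 peaks over the 8 libraries, Dcc (1098 kb, chromosome 18, 71253613 to 72351228) 213, and Robo1 (1020 kb, chromosome 16, 72027518 to 73047491) 183. Slit3 (587 kb, chromosome 11, 35121456 to 35708507) held 132 and Unc5d (573 kb, chromosome 8, 28646717 to 29219671) 120. These 5 genes are all longer than 99.2% of protein-coding genes.

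The remaining 5 genes held fewer. Unc5c (369 kb, chromosome 3, 141465564 to 141834924) held 78 peaks and Slit2 (326 kb, chromosome 5, 47981291 to 48307735) held 60. Ntn1 (177 kb, chromosome 11, 68209364 to 68386826) held 25. Unc5b (69.0 kb, chromosome 10, 60762594 to 60831581) held 23 and Unc5a (60.9 kb, chromosome 13, 54945151 to 55006018) held 15. With 15 and 23 peaks over 8 libraries, the short receptors had 1 to 5 peaks in any library.

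Per length, the ranges of the 10 genes over the libraries overlapped. The mean density ran from 16.7 ± 10.8 peaks per Mb in Ntn1 to 36.4 ± 20.8 in Unc5b (SD, n = 8 libraries), and all long genes together gave 22.7 ± 1.14. Between these, Robo2 had 20.5 ± 6.99, Robo1 22.2 ± 2.86, Slit2 22.3 ± 12.3 and Dcc 24.0 ± 10.8 peaks per Mb. Unc5c had 25.7 ± 14.2, Unc5d 25.7 ± 7.73, Unc5a 26.5 ± 11.8 and Slit3 27.6 ± 10.2. Each gene differed from its neighbour in this order by less than the SD of either. Genes further apart could differ by more, as Robo1 and Unc5b differed by more than the SD of Robo1.

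The first comparison set receptors against ligands. Summed peaks over summed length, the receptor genes had 27.4, 16.8, 21.4 and 26.6 peaks per Mb in sgRosa libraries 1 to 4 and 28.9, 24.7, 17.2 and 21.6 in sgNr2f2 libraries 1 to 4. Ligand genes had 12.5, 24.1, 27.7 and 21.4 peaks per Mb in sgRosa and 16.1, 24.1, 37.5 and 30.3 in sgNr2f2. Receptors were denser in sgRosa 1 and 4 and sgNr2f2 1 and 2, and ligands in the other 4 libraries.

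The means over libraries were 23.1 ± 4.56 peaks per Mb for receptors and 24.2 ± 7.90 for ligands (SD, n = 8), a smaller difference than the spread of either. The receptor to ligand ratio was 2.19, 0.698, 0.773 and 1.24 in sgRosa libraries 1 to 4 and 1.80, 1.03, 0.460 and 0.712 in sgNr2f2 libraries 1 to 4. It averaged 1.113 ± 0.602 (SD, n = 8), was above 1 in 4 of 8 libraries, and fell below 1, to 0.958, without sgRosa 1. No p is given for these sums, because the genes were chosen with results of these data known.

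**Figure D2:**
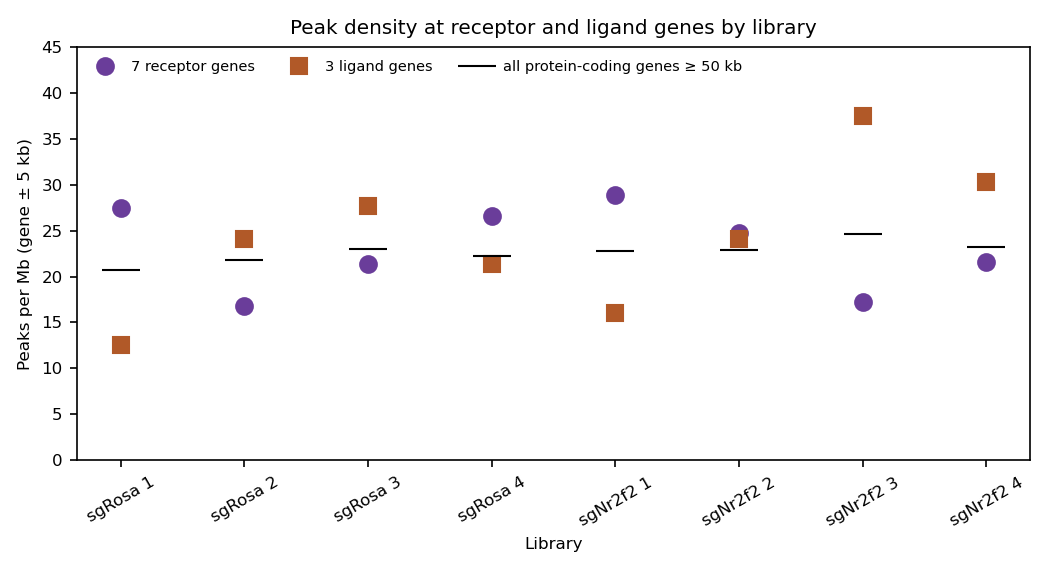
Peaks per Mb (y axis) at the 7 receptor genes (circles) and the 3 ligand genes (squares) in each library, with the density over long protein-coding genes as a line, equal-length lists. Circles lie above squares in 4 of 8 libraries.

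Single genes moved the ratio. In sgRosa 1, the library with the highest ratio, Dcc had 46 peaks and Unc5c 22, the highest of any library for both, while Slit2 had 2, its lowest. In sgNr2f2 3, with the lowest ratio, Robo2 had 16 peaks, its lowest, and Slit3 28, its highest. Without Slit3, which holds 132 of the 217 ligand peaks, the mean ratio was 1.43 ± 0.981 (SD, n = 8). That mean was raised by sgRosa 1, at 3.59, and the ratio was again above 1 in 4 of 8 libraries.

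Within receptors, the netrin receptors (Dcc and the UNC5 genes) had 25.3 ± 7.49 peaks per Mb and the Slit receptors (Robo1 and Robo2) 21.2 ± 4.91 (SD, n = 8). Netrin receptors were denser in 6 of 8 libraries, with a mean ratio of 1.25 ± 0.478 (SD, n = 8). Their difference of means was smaller than the SD of the netrin receptors.

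Densities in the genes were next set against 1 Mb on each side. Averaged over the 10 genes, the density relative to the mean flank was 1.17, 0.875, 1.27 and 0.877 in sgRosa libraries 1 to 4 and 1.18, 1.04, 1.26 and 1.16 in sgNr2f2 libraries 1 to 4. It was above 1 in 6 of 8 libraries, with a mean of 1.10 ± 0.156 (SD, n = 8), and the 2 libraries below 1 were both sgRosa. Each gene counts equally in this average, so Unc5b, with 23 peaks, weighs as much as Robo2, with 257. The average without single genes is not given here. The mean density was above that of the flank at 7 of 10 genes, where 53% of 4925 long genes were above theirs. The median ratio was 1.09 over the 10 genes and 1.02 over the long genes.

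Dcc was above its flank in 7 of 8 libraries, the most of the 10 genes. Its density was 41.5, 9.03, 18.96 and 28.0 peaks per Mb in sgRosa libraries 1 to 4 and 34.3, 27.1, 19.9 and 13.5 in sgNr2f2 libraries 1 to 4. The flank had 22.5, 8.5, 14.5 and 27.5 peaks per Mb in sgRosa and 20, 19, 16 and 15.5 in sgNr2f2. The exception was sgNr2f2 4, and the ratio of means was 1.34. The Dcc counts include 1 peak per library from the region found in all 8 libraries, described below. In sgRosa 2 and sgRosa 4 the ratio to the flank was only 1.06 and 1.02, and in both the lead over the flank rested on that peak. By a two-sided exact sign-flip permutation over the 8 libraries, p was 0.0391. Adjusted by Benjamini-Hochberg over the 4925 genes, this p was 0.398, which did not pass, though no gene could pass on its own p alone.

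**Figure D3:**
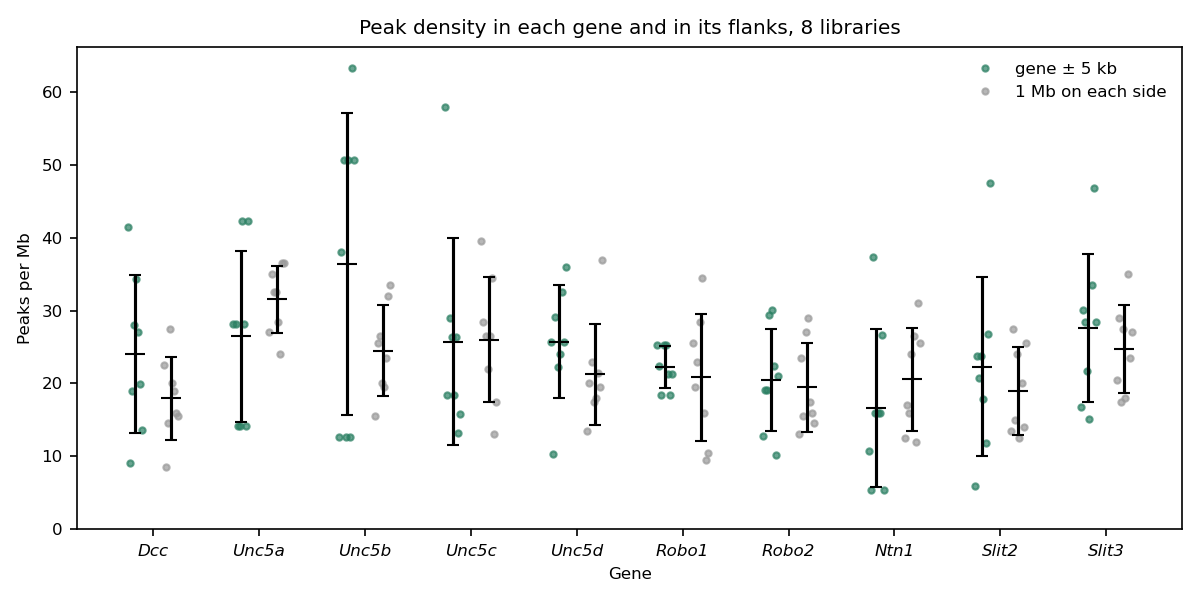
Peaks per Mb (y axis) for each gene with 5 kb on each side (green) and for 1 Mb on each side of it (grey), with a point per library and the mean ± SD of 8 libraries in black. Gene and flank overlap for all 10 genes.

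No gene of the 10 was called against its flank in either direction at an adjusted p of 0.05, and the background share was 0% in both directions, since no long gene was called. The smallest p that 8 libraries allow is 0.00781. No member was above its flank in all 8 libraries, where 0.832% of the long genes were, and none below in all 8, where 2.31% were.

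Among the other receptors, Unc5b had the highest ratio, 1.49, from few peaks, and was above its flank in 5 of 8 libraries. Unc5d had a ratio of 1.21 and was above in 6 of 8. Robo1, at 1.06, and Robo2, at 1.05, were above in 4 and 5 libraries. On chromosome 16 the flank of each of these neighbours reaches into the other gene.

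Unc5c had a ratio of 0.989 and Unc5a, which lies in the densest flank at 31.6 ± 4.62 peaks per Mb (SD, n = 8), one of 0.838. The ligands gave 1.17 for Slit2, 1.12 for Slit3 and 0.811 for Ntn1. Slit2 and Slit3 were above their flanks in 4 libraries each and Ntn1 in 2.

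Nearly all member peaks were found in 1 library only. Merging all intervals that overlapped by 1 bp or more gave 1063 regions at the 10 genes, of which 1026 were in 1 library, 35 in 2, 1 in 3 and 1 in all 8. The share in 2 or more libraries was 3.48%, beside 4.92% of 142917 regions at long genes and 5.12% of all 405562 regions. Slit2, with 60 regions, and Unc5a, with 15, shared none between libraries. At Robo1 3 of 180 regions were shared, at Robo2 9 of 248, at Unc5d 6 of 115 and at Slit3 7 of 125.

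The 1 region found in all 8 libraries lay inside Dcc, at chr18:71506423-71506582, 253 kb from the low end of the gene. It had the same start and end in every library, 160 bp apart, as did 5 of the 230 regions of the whole data found in all 8. Its −log10 p was 18.5, 8.85, 19.7 and 22.6 in sgRosa libraries 1 to 4 and 9.41, 11.8, 15.4 and 13.0 in sgNr2f2 libraries 1 to 4. Both groups thus held it well within their strongest peaks, and the values overlapped.

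By rank in the list, this Dcc peak stood at 158, 233, 145 and 115 in sgRosa 1 to 4 and at 259, 199, 190 and 182 in sgNr2f2 libraries 1 to 4. The mean rank of the sgRosa libraries was 162.75 ± 50.2 and that of the sgNr2f2 libraries 207.5 ± 35.0 (SD, n = 4 each; two-sided exact permutation p = 0.229). Its fold enrichment, a value of the authors' peak caller, was between 4.38 and 8.31. No list of repeats or of sites of excess signal was used here, and whether this region lies in one was not tested.

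A second Dcc region, chr18:71439194-71439613, was found in sgRosa 2, sgNr2f2 1 and sgNr2f2 3, with −log10 p of 2.84 to 4.53. No other region at the guidance genes was in more than 2 libraries. Of the 35 regions in 2 libraries, 21 joined a library of each group, 12 joined libraries within sgNr2f2 and 2 within sgRosa. In percent these were 60%, 34.3% and 5.71%, beside 56.8%, 21.9% and 21.4% of all regions in 2 libraries. Both peaks passed a q of 0.05 in 2 of the 35, at Dcc (chr18:71667839-71668219) and at Robo2 (chr16:74937065-74937339), each joining sgRosa 4 with an sgNr2f2 library.

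Apart from that Dcc region, the strongest peak of each gene was modest and in 1 library. For the other 9 genes its −log10 p was between 5.02 (Unc5a, sgNr2f2 3) and 8.07 (Unc5d, sgRosa 2), and no peak of another library overlapped it. The median −log10 p of member peaks was between 3.81 and 4.34 per library, against 3.50 to 4.09 for whole lists, with the same median as the list in 4 of 8 libraries and a higher one in the other 4. A q of at most 0.05 was reached by 48 of 343 Dcc peaks in the full lists (14.0%), the highest share, and by 1 of 27 Unc5a peaks (3.70%), the lowest. Of the 48 Dcc peaks, 8 were the region found in all 8 libraries, counted once per library. Without it the share of Dcc would lie below those of Slit2 (13.75%), Unc5c (13.2%) and Unc5b (12.1%).

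The last comparison, sgNr2f2 against sgRosa, asked whether directing the guide at Nr2f2 went with more or fewer peaks at these genes. No member passed the test, and in all 10 the libraries of the groups overlapped. Summed over the 10 genes, sgRosa libraries 1 to 4 had 146, 108, 134 and 152 peaks and sgNr2f2 libraries 1 to 4 had 157, 146, 125 and 138. The lowest sum, sgRosa 2, and the highest, sgNr2f2 1, framed 6 libraries that were mixed between groups.

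**Figure D4:**
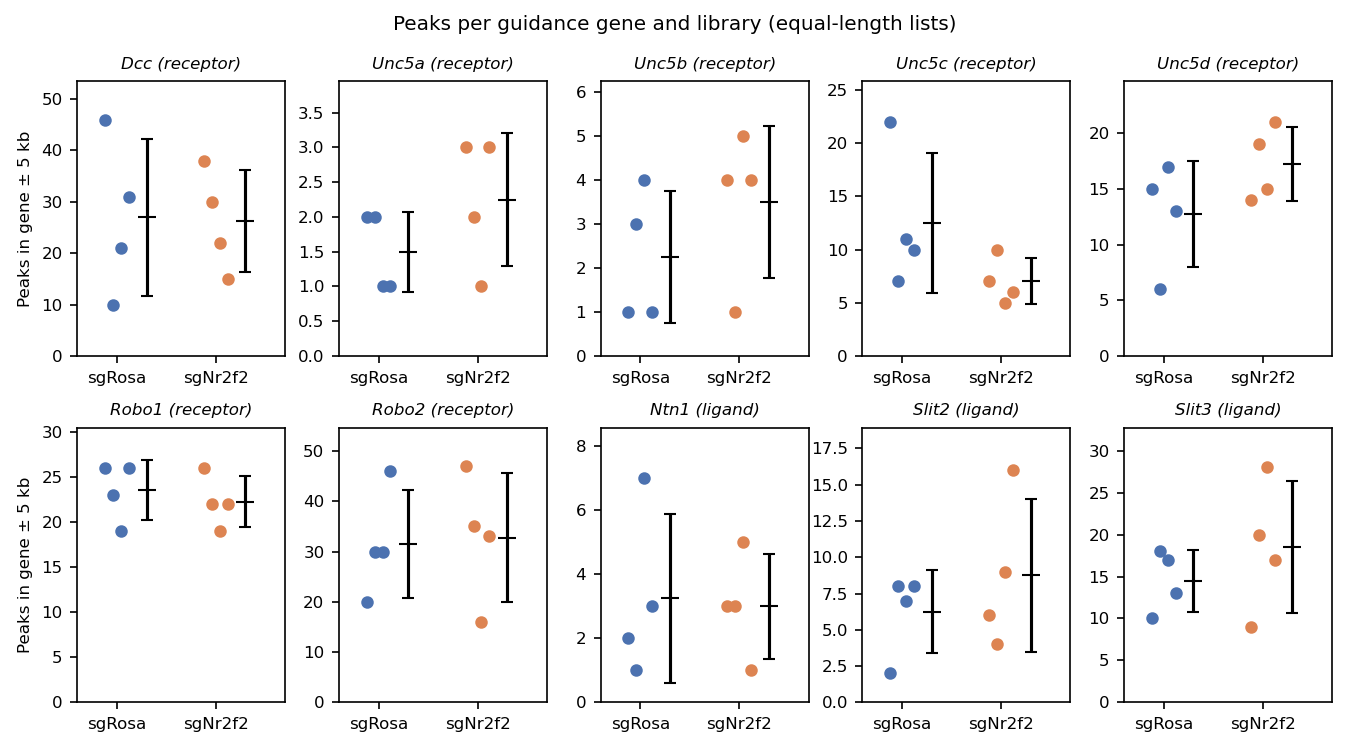
Peaks in each gene with 5 kb on each side (y axis, own scale per gene) in the 4 sgRosa (blue) and 4 sgNr2f2 (orange) libraries, with the mean ± SD of 4 libraries in black. The points of the groups overlap for all 10 genes, and Unc5c has its highest library, 22 peaks, in sgRosa.

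Of the 10 genes, 9 had a mean of at least 2 peaks per library and entered limma on log2(peaks + 1) over 3592 genes, while Unc5a, at a mean of 1.88, did not. At a Benjamini-Hochberg adjusted p of 0.05, limma called 0 members higher and 0 lower, with a background of 0% of genes called in either direction. At an unadjusted p of 0.05, it again called 0 members, where 4.51% of all tested genes were higher and 2.06% lower in sgNr2f2. The exact permutation, whose smallest p is 0.0286, reached it in no member and in 1.64% of genes as higher and 0.557% as lower, the genes whose groups did not overlap. In limma 6 of 9 members had a difference above 0 and 2 below, with a median of 0.07 on the log2(peaks + 1) scale, beside 58.6% above 0 and a median of 0.13 over all genes tested.

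Dcc, the attractive netrin-1 receptor, had 46, 10, 21 and 31 peaks in sgRosa 1 to 4 and 38, 30, 22 and 15 in sgNr2f2 libraries 1 to 4. The highest and the lowest library were both sgRosa, so the sgNr2f2 values lay inside the sgRosa range. The means were 27 ± 15.3 and 26.2 ± 9.95 peaks (SD, n = 4 each), and the log2 difference was 0.07 (SE 0.371, 95% confidence interval −0.68 to 0.82; limma adjusted p = 0.983). On the plain scale the sgNr2f2 mean was lower and on the log2 scale slightly higher, so Dcc had no stable direction. Its sign depended on single libraries, with −0.31 without sgRosa 2 and 0.38 without sgRosa 1.

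Relative to its mean, the variance of Dcc was the highest of the 10 genes. The variance of its peaks over 8 libraries was 5.36 times the mean, against 1.43 for the median gene tested and 2.90 for the median of 88 genes with a mean of at least 20 peaks. Robo2 stood at 3.73 and Unc5c at 2.98, while Robo1 stood at 0.380 and Unc5a at 0.371. The SD relative to the mean, which falls with the count, was 44.9% for Dcc and higher for Ntn1, Unc5b, Unc5c and Slit2, between 55.2% and 65.0%. In sgRosa 1, with 46 Dcc peaks, chromosome 18 as a whole had 1467 peaks, its lowest number in any library, and Dcc took 3.14% of them. In sgRosa 2 it took 0.539%, the lowest share.

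Unc5c, a receptor for netrin-1 in repulsion, had 22, 7, 11 and 10 peaks in sgRosa 1 to 4 and 7, 10, 5 and 6 in sgNr2f2 libraries 1 to 4. The sgNr2f2 values were at or below 10, and sgRosa 2 and 4 lay among them. Its means of 12.5 ± 6.56 and 7 ± 2.16 peaks (SD, n = 4 each) gave a log2 difference of −0.68 (SE 0.434, interval −1.56 to 0.20; limma adjusted p = 0.781), the furthest from 0 of the members. Without sgRosa 1 it was −0.39, and relative to the flanks, an alternative added after seeing the data, −0.31. Chromosome 3 as a whole also held fewer peaks in sgNr2f2, with 5911, 4642, 4223 and 3750 peaks in sgRosa 1 to 4 and 3673, 3588, 2666 and 3263 in sgNr2f2 1 to 4, where the groups did not overlap. On every other chromosome that holds a member the groups overlapped, and chromosomes without a member are not given here. Whether the chromosome bears on the Unc5c counts was not tested.

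Unc5d had 15, 6, 17 and 13 peaks in sgRosa 1 to 4 and 14, 19, 15 and 21 in sgNr2f2 libraries 1 to 4. The lowest was sgRosa 2 and the highest sgNr2f2 4, and the other 6 libraries were mixed. The means were 12.8 ± 4.79 and 17.2 ± 3.30 peaks (SD, n = 4 each), with a log2 difference of 0.48 (SE 0.385, interval −0.30 to 1.25; limma adjusted p = 0.812). Without sgRosa 2 it was 0.18, and relative to the flanks 0.16. Unc5b had 1, 3, 4 and 1 peaks in sgRosa and 4, 1, 5 and 4 in sgNr2f2, and Unc5a 2, 2, 1 and 1 against 3, 2, 1 and 3. In both of these short genes the groups overlapped, and Unc5b gave a log2 difference of 0.48 (SE 0.540; limma adjusted p = 0.888), which single libraries moved to between 0.28 and 0.83 when left out and which was 0.89 in full lists.

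Robo1, a Slit receptor, had 26, 23, 19 and 26 peaks in sgRosa 1 to 4 and 26, 22, 19 and 22 in sgNr2f2 libraries 1 to 4, the same lowest and highest value in both groups. The means were 23.5 ± 3.32 and 22.2 ± 2.87 peaks (SD, n = 4 each), with a log2 difference of −0.07 (SE 0.319, interval −0.72 to 0.57; limma adjusted p = 0.980). The flanks of Robo1 were not as even, at 19 to 69 peaks per library. Relative to the flanks, the log2 difference of Robo1 was 0.53.

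Robo2 had 20, 30, 30 and 46 peaks in sgRosa 1 to 4 and 47, 35, 16 and 33 in sgNr2f2 libraries 1 to 4. Each group had a library near 46 and one at or below 20. The log2 difference was 0.02 (SE 0.325, interval −0.64 to 0.68; limma adjusted p = 0.996), and between −0.18 and 0.32 with 1 library left out. Although both lie on chromosome 16, Robo1 and Robo2 differed in spread, with Robo2 between 16 and 47 peaks and Robo1 between 19 and 26.

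Ntn1, the ligand of DCC and the UNC5 receptors, had 2, 1, 7 and 3 peaks in sgRosa 1 to 4 and 3, 3, 5 and 1 in sgNr2f2 libraries 1 to 4. Both groups reached down to 1 peak, and the log2 difference was 0 (SE 0.537, interval −1.09 to 1.09; limma adjusted p = 1), and between −0.30 and 0.37 with 1 library left out. Slit2 had 2, 8, 7 and 8 peaks in sgRosa and 6, 4, 9 and 16 in sgNr2f2. Its lowest library was sgRosa 1 and its highest sgNr2f2 4, and the other 6 overlapped, with a log2 difference of 0.40 (SE 0.483, interval −0.57 to 1.38; limma adjusted p = 0.888). It rested on single libraries, at 0.02 without sgRosa 1, 0.09 without sgNr2f2 4 and 0.67 without sgNr2f2 2.

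Slit3 had 10, 18, 17 and 13 peaks in sgRosa 1 to 4 and 9, 20, 28 and 17 in sgNr2f2 libraries 1 to 4. The sgNr2f2 libraries held both its lowest and its highest value. The means were 14.5 ± 3.70 and 18.5 ± 7.85 peaks (SD, n = 4 each), with a log2 difference of 0.26 (SE 0.382, interval −0.51 to 1.04; limma adjusted p = 0.920). It was 0.04 without sgNr2f2 3, 0.11 without sgRosa 1 and 0.55 without sgNr2f2 1. With intervals this wide, 2-fold changes of peaks + 1 remain inside the interval of Unc5b, Unc5c, Unc5d, Ntn1, Slit2 and Slit3.

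Receptor genes as a group had a mean of 23.1 ± 4.93 peaks per Mb in sgRosa libraries and 23.1 ± 4.92 in sgNr2f2 libraries, and ligand genes 21.4 ± 6.47 and 27.0 ± 9.11 (SD, n = 4 each). The ligand difference was smaller than the SD of either group. Other families of long adhesion genes had other values in the same libraries, given without a test. The type II cadherin genes (12 genes) had 34.4, 24.8, 23.0 and 26.9 peaks per Mb in sgRosa and 17.7, 17.2, 15.9 and 15.9 in sgNr2f2, while the guidance genes had 24.6, 18.2, 22.6 and 25.6 in sgRosa and 26.4, 24.6, 21.1 and 23.2 in sgNr2f2.

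A list of 38 other genes of these pathways (further netrins, receptors, binding partners and the signalling proteins inside the growth cone) was treated likewise. Of these, 25 entered the fit, and limma called 0 higher and 0 lower at an adjusted p of 0.05. At an unadjusted p of 0.05 it gave 2, or 8% of the 25, where 6.57% of all 3592 tested genes passed. The median log2 difference of the 25 was −0.16. The 2 were Srgap1, which encodes a GTPase-activating protein that binds ROBO receptors, and Ntng2, a membrane-anchored netrin named after its values were seen.

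Among those in the fit, the largest differences in mean peaks were at Lrrc4c, Dock1, Dscaml1, Srgap1 and Ntng1. Lrrc4c, the receptor of netrin-G1, had 34.2 ± 5.56 peaks in sgRosa and 24.5 ± 4.65 peaks in sgNr2f2 (limma adjusted p = 0.781). Dock1, a Rac activator acting downstream of DCC, had 9.75 ± 8.06 and 16.5 ± 8.81 (SD, n = 4 each; limma adjusted p = 0.769). Dscaml1, a relative of the netrin receptor gene Dscam, had 6 ± 2.45 and 11.2 ± 4.86 (limma adjusted p = 0.769).

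Srgap1 had 9.25 ± 3.5 and 4.25 ± 2.36 peaks (limma adjusted p = 0.730). Ntng1, the netrin-G1 gene, had 11.8 ± 7.14 and 7.75 ± 4.99 (SD, n = 4 each; limma adjusted p = 0.808). Ntng2 had 0.75 ± 0.5 and 3.5 ± 1 (limma adjusted p = 0.730). None of the 6 passed the adjusted threshold.

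Of the 3592 genes in the fit, those whose peaks per library ran most like the members' sum were Coil (Pearson r 0.900), Nnmt (0.898) and Erbin (0.870), over 8 libraries. They had means of 2.62, 2.62 and 3.12 peaks, and r over such sparse counts is given as a description.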

How the data were processed

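ATAC-seq peaks of 8 libraries of isolated amygdala neurons were used, 1 list per library, grouped and numbered by the sample titles. The submitters' processing notes name MACS2 2.2.9.1, DiffBind 3.10.0, HOMER 4.10, fastp 0.23.2, Picard and mm10. The aligner, the handling of duplicates, the shift for Tn5 and the MACS2 settings are not given in the sources used here. Each deposited line holds the authors' integer score, a fold enrichment (a ratio to the local background), a −log10 p and a −log10 q. These are the peak's own values, called per library without scaling across libraries, and served only for ranks, limits and descriptions inside a list. Deposited −log10 p values begin at about 2, so weak peaks are included, and with no read totals the precision per peak is unknown.

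Only chromosomes 1 to 19 and X were used, and an interval listed with more than 1 summit was reduced to its highest −log10 p (3499 lines removed). Lists were cut to the strongest 53864 peaks. Ties at the last kept value, up to 18530 peaks of which 5311 were kept in sgNr2f2 2, were broken at random with a fixed seed. Genes came from RefSeq tables of GRCm38.p6, which give orientation for some genes only, and exons were not used here.

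Peaks per gene were compared on log2(peaks + 1) with limma 3.58.1 (R 4.3.3, with trend, Benjamini-Hochberg) over genes with a mean of at least 2 peaks, and by exact permutation over 70 assignments. The 4925 long genes compared with their flanks were those of 4941 that could be tested. Other values came from Python 3.11.15 with scipy 1.17.1, pandas 2.3.3 and numpy 2.4.6. Tested on simulated data of 3136 genes, the group comparison recovered 69 of 100 planted 4-fold changes and 12 of 100 planted 2-fold changes, with 2 false calls. The simulated counts of genes with a mean of at least 20 peaks varied more than the real ones, whose median variance was 2.90 times the mean. The recovery is therefore not a measure of what these lists allow. Changes were planted only in genes with a higher mean number of peaks than Unc5b, Unc5c, Ntn1 and Slit2. The recovery for genes with as few peaks as these was not tested.

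The members and lists were chosen with earlier results of these data known. All 10 members are named, with the targeted gene, the 5 other pathway genes in the fit with the largest difference in mean peaks, the 3 genes most like the members' sum, and start-site sequences of members with peaks within 1 kb in 2 or more libraries outside chromosome 18. Same-numbered libraries gave no sign of pairing in peaks per gene. Alternatives were list length, ranking by fold, a q limit, gene window, summits, filters, pseudocount, trend, flank size, the replicate number as a block and each library left out.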

Additional observations from a re-analysis of the deposited data

Results flagged for a closer look

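Of 26 groups of 4 libraries examined for a sample far from the others, 1 stood out, and chance alone gives about 1 in 20 groups. It was Slit2 in sgRosa: sgRosa 1 had 2 peaks, where the other sgRosa libraries had 7 or 8, so that the gap to the nearest of them took 0.833 of the whole range. The same library held the highest numbers of Dcc and Unc5c peaks. The flanks of Slit2 had 13.5 peaks per Mb in sgRosa 1, the lowest of the sgRosa libraries.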

How the results depend on the processing

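In the group comparison no member was called in any alternative, planned or added after seeing the data (ties shared or kept in file order, and counts relative to the flank), and no tested gene was either. For the exact permutation this follows from its smallest p of 0.0286, which a single gene cannot carry through the adjustment. The settings change densities by construction, since they change the number of peaks: receptors had 36.1 peaks per Mb in full lists, 12.3 in lists of 26932 peaks and 3.76 with a q of at most 0.05, and ligands 36.7, 12.9 and 3.23. Regions in 2 or more libraries rose from 37 to 94 in full lists and were 25 where an overlap of 50% of the shorter interval was required. Leaving out each library gave 0 members called throughout, 22.3 to 24.0 peaks per Mb for receptors, 22.3 to 25.9 for ligands, a receptor to ligand ratio of 0.958 to 1.21, a gene to flank ratio of 1.08 to 1.14 and a share of peaks in the first of the 5 parts of 18.9% to 20.9%. The sign of the log2 difference changed in 4 of 22 alternatives for Dcc, 8 of 22 for Robo2 and 1 of 22 for Robo1, and in none for Unc5b, Unc5c, Unc5d, Slit2 and Slit3, although Slit2 fell to 0.02 and Slit3 to 0.04 with 1 library left out. Ntn1, at 0, ranged from −0.33 to 0.37. The cause was not tested.

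With the replicate number as a block, 0 members were called, the smallest adjusted p of a member was 0.764 (limma), and 240 genes had an unadjusted p under 0.05 against 236 without it. Deviations of same-numbered libraries correlated at 0.03, −0.01, 0.02 and 0.02, and 1 of the 4 numbers was the best match of its own library. Peaks per gene thus gave no sign of pairing, but counts this sparse cannot show that it is absent. Unknown depth, many weak peaks and 4 libraries per group limit what the lists can show. In the simulation, 12 of 100 planted 2-fold changes were recovered, all planted in genes with more peaks than Unc5b, Unc5c, Ntn1 and Slit2. Its counts varied more than the real ones at genes with many peaks, so this recovery does not carry over to the lists.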
